A study of Mus musculus with 8 samples.

Results

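Transcripts of the insulin-like growth factor system were examined in mouse spleen through 9 genes. They were the ligands Igf1 and Igf2, the receptor Igf1r, and the binding proteins Igfbp2, Igfbp3, Igfbp4, Igfbp5, Igfbp6 and Igfbp7. The genes were taken by symbol as a family, and the family was chosen with earlier results of these data known. They were 9 of the 52636 genes in the count table, and each was among the 17327 genes with enough counts to be tested. The libraries came from C57BL/6 mice aged 6 weeks in 4 groups of 2 libraries. In the first group were spleens of mice with the Lmna R527C mutation taken 7 days after 4 Gy of irradiation, and in the second were spleens of wild-type mice given the same dose and taken on the same day. The third group held unirradiated mutant spleens and the fourth unirradiated wild-type spleens, both taken at day 0. Lmna encodes lamins A and C of the nuclear envelope. The labels do not say whether 1 or both copies of the gene carried the change, nor whether the libraries of a group were made from different mice, so the p-values given here measure only the spread between these libraries.

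Insulin-like growth factors are secreted peptides that signal through a receptor tyrosine kinase to promote cell growth and survival. Most circulating Igf1 is made by the liver under the control of growth hormone, but macrophages and connective tissue cells also make it locally. The binding proteins are secreted as well; they hold the ligands in plasma and in the extracellular matrix and can limit or prolong their action at the receptor. In tissues they are mainly products of fibroblasts, mural cells, endothelium and other stromal cells.

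Irradiated spleens held more Igf1 transcript than unirradiated ones in both genotypes, and this difference passed the test in mutants (6.02-fold, adjusted p = 0.0370). It was 3.63-fold in wild type and did not pass there. The irradiated and unirradiated libraries also differed in sex-linked RNA, described below, so irradiation and that difference cannot be told apart. All 9 members had higher fitted levels in irradiated mutants than in unirradiated mutants. Among them Igfbp5, Igfbp4, Igfbp6 and Igfbp2 had an unadjusted p under 0.05, with differences of 2.99-fold to 8.39-fold. None of these passed after adjustment over all genes, nor did Igfbp3, with a fitted difference of 3.51-fold. With Igf1, 5 of 9 members had an unadjusted p under 0.05, against 22.1% of all genes. For Igfbp3, Igf2 and Igf1r the irradiated and unirradiated mutant libraries overlapped. The fitted effects of Igfbp3, Igf2 and Igf1r fell below 0 without irradiated mutant replicate 2. Irradiated replicates lay far apart: 5 of the 9 members differed by over 2-fold between the irradiated mutant libraries, as did 37.7% of all genes tested. No member passed in any comparison of mutant with wild type in the main test, which used all 8 libraries. In a fit of only the unirradiated groups, Igfbp5 and Igfbp3 passed, both lower in mutants, as were 0.546% of all genes. DESeq2 and limma-voom, other tests of the same counts, called no member in that comparison.

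The regions upstream of 3 binding protein genes are shown first, because Igfbp4 and Igfbp5 had almost the same profile over the libraries and Igfbp6 had the highest fold difference after irradiation in mutants. Each is the 250 bases before a RefSeq transcription start on GRCm38.p6, written 5′ to 3′ on the gene's strand. Capitals mark matches, searched on both strands, to 4 motifs that do not overlap one another here: the TATA box, with the letters TATAAA; the GC box, with the letters GGGCGG; the CCAAT box, with the letters of its name; and the core of the site of FOXO factors, with the letters GTAAACA. FOXO factors are held inactive by insulin and insulin-like growth factor signalling.
Igfbp4, chr11:99040994-99041243, + strand: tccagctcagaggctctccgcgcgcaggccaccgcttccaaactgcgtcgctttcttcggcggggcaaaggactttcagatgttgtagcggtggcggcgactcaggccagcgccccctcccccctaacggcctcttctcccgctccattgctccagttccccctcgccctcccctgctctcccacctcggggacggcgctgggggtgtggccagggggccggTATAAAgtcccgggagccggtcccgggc
Igfbp5, chr1:72874866-72875115, - strand: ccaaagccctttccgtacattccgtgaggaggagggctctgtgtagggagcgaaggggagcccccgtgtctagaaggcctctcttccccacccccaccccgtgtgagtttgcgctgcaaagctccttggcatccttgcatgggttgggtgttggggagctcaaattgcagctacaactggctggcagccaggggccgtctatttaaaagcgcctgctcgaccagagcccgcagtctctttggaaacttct
Igfbp6, chr15:102143936-102144185, + strand: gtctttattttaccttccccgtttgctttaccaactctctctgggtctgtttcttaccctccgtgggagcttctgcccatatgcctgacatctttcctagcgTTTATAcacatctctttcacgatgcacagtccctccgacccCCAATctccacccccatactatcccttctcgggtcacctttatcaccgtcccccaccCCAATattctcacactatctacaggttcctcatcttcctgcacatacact

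The Igfbp4 window held a TATA box on the gene's strand, with its first base 28 before the start (position -28). The Igfbp5 window held none of the 4 motifs in these exact letters, and variants of them were not searched. Of its bases, 19 lie in an annotated exon, because the gene annotation starts Igfbp5 upstream of the RefSeq start (at 72874884). The Igfbp6 window held CCAAT boxes on the gene's strand at positions -107 and -50, and a TATA box on the other strand at position -148. That window ends at 102144185, upstream of the start of Igfbp6 in the gene annotation (102144362), so its positions refer to the RefSeq start only. RefSeq gave 13 windows for the 9 members. Of these windows 2 lay wholly in annotated exons, the only one of Igf1 and 1 of Igf2. The TATA box was in 2 of the 13 windows (those of Igfbp4 and Igfbp6), the CCAAT box in 3 (Igf1, Igf2 and Igfbp6), the GC box in 5 (2 of Igf2, and those of Igf1r, Igfbp2 and Igfbp7) and the FOXO core in none. Over 32851 windows of the same length in the mouse genome, also counted by window, the TATA box was in 12.4%, the GC box in 32.7%, the CCAAT box in 33.8% and the FOXO core in 3.17%. These matches describe the letters only.

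The libraries held 12100784 to 19455470 gene counts each, so that a floor of 3 counts, the most that a count of 0 allows, lay between 0.131 and 0.350 CPM (counts scaled to library size) per library. The tissue label was met by transcripts of the spleen stroma regulator Tlx1 (12.2 to 36.3 CPM) and of Spic, which defines red pulp macrophages (62.2 to 232 CPM), in each of the 8 libraries. Replicates matched well at day 0 and poorly after irradiation: 37.7% of the genes tested differed by over 2-fold between the irradiated mutant libraries and 21.2% between the irradiated wild-type libraries, against 1.09% in unirradiated mutants and 2.52% in unirradiated wild type. Irradiated mutant replicate 2 had the highest level of 8 of the 9 members (88.9%), whereas it had the highest level of 19% of all genes tested. The sum of 7 adipocyte markers was 80.4 and 974 CPM in irradiated mutants, 10.3 and 109 CPM in irradiated wild type, 5.53 and 50.5 CPM in unirradiated mutants, and 11.2 and 125 CPM in unirradiated wild type, with replicate 2 above replicate 1 in each group. The irradiated mutant libraries also differed in the sums of 6 erythroid markers (127736 and 11404 CPM), 6 B cell markers (72.1 and 941 CPM) and 8 T cell markers (128 and 1074 CPM). The part of any of these in the members' replicate differences was not tested. The irradiated libraries also differed from the unirradiated ones in sex-linked RNA: Xist was at 1028 to 1774 CPM in them while 4 Y-linked genes together had 0 counts, and in unirradiated libraries the same 4 genes came to 263 to 299 CPM while Xist had at most 6 counts. The labels state no sex, but this is the pattern of female spleens in the irradiated groups and male spleens in the unirradiated ones. Irradiation, day and this difference cannot be told apart in any irradiation result given here, above or below. Mutant and wild type were compared among libraries that were alike in it.

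**Figure D1:**
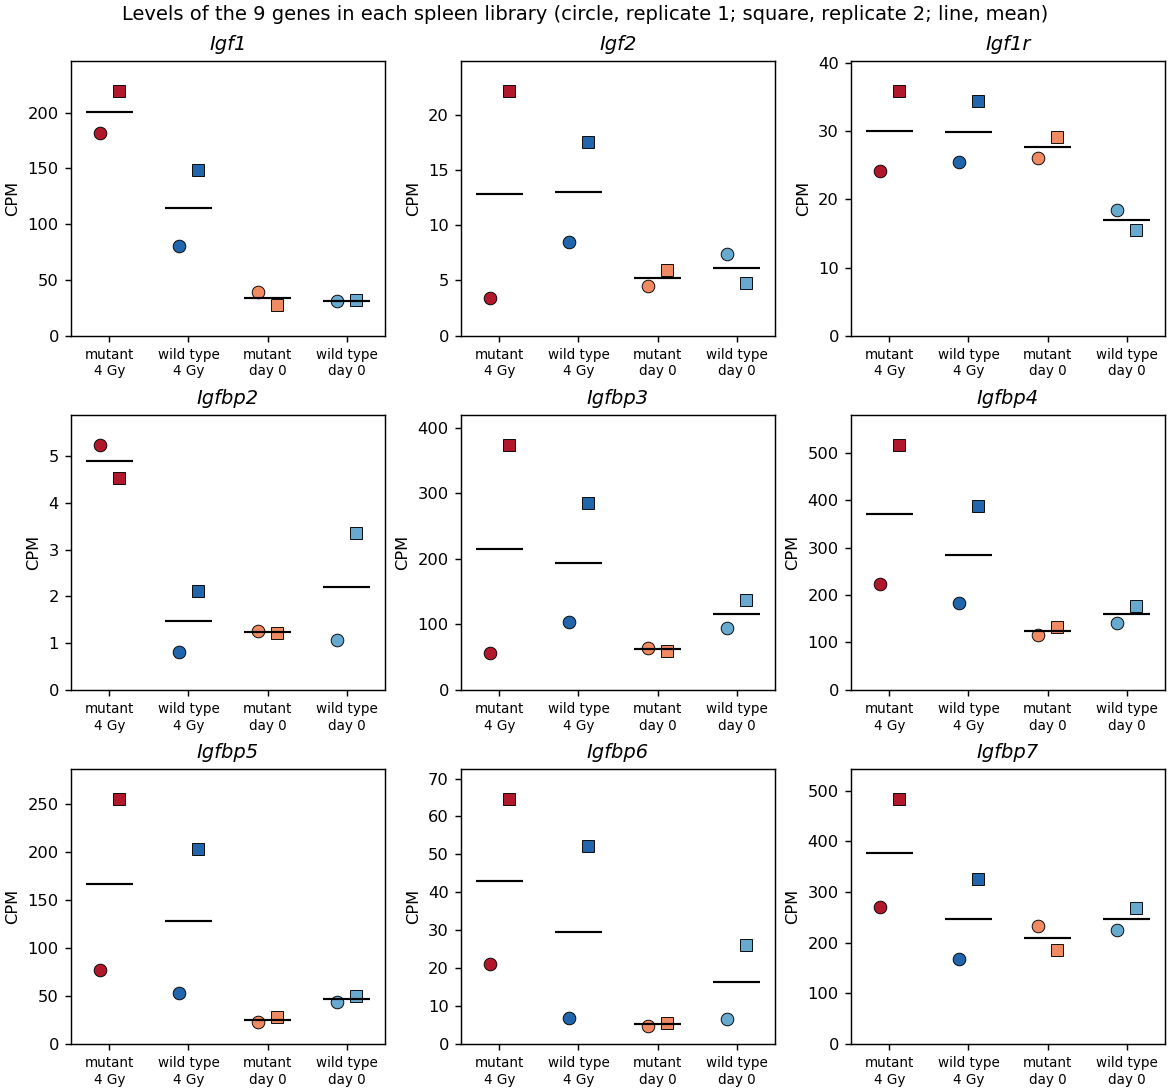
Level of each of the 9 genes, in CPM on a linear axis from 0, in the 8 spleen libraries; circles are replicate 1, squares replicate 2, and lines the group means. Igf1 lies between 80.1 and 220.0 CPM in irradiated libraries and at or under 38.9 CPM in unirradiated ones, and Igfbp3 spreads from 56.3 to 375 CPM within irradiated mutants.

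Igf1 (ENSMUSG00000020053.18; GRCm38 chromosome 10, start 87858265, end 87937042, + strand) is the main ligand of the system after birth. Its level was 182 and 220.0 CPM in irradiated mutant spleens and 80.1 and 148 CPM in irradiated wild-type spleens. In unirradiated spleens it was 38.9 and 27.8 CPM in mutants, and 31.1 and 31.8 CPM in wild type. Each irradiated library lay above each unirradiated library of its own genotype and of the other. The group means were 201 ± 26.9 CPM in irradiated mutants, 114 ± 48.3 CPM in irradiated wild type, 33.4 ± 7.82 CPM in unirradiated mutants and 31.5 ± 0.455 CPM in unirradiated wild type (SD, n = 2 each).

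The log2 fold change of Igf1 from irradiation was 2.59 ± 0.39 in mutants (SE; 95% interval 1.70 to 3.48; edgeR quasi-likelihood test, adjusted p = 0.0370) and 1.86 ± 0.38 in wild type (0.99 to 2.73; adjusted p = 0.125). Igf1 was the 1 member of 9 that passed in mutants, where 104 genes (0.6% of those tested) passed in either direction and 44 (0.254%) passed upward. In wild type 0 of 9 members passed, against 10 genes (0.0577%). The wild-type difference passed in other tests of the same counts, with adjusted p = 9.87e-04 in DESeq2, which called 2.61% of all genes upward, and 0.0239 in limma-voom with library weights, which called 2.29% upward. The mutant call was lost without either unirradiated mutant library (adjusted p = 0.303 without replicate 1 and 0.453 without replicate 2) and without either unirradiated wild-type library (0.127 and 0.124). The effect itself stayed between 2.30 and 2.83 on the log2 scale whichever of the 8 libraries was left out. The 2 irradiation effects on Igf1 differed by 0.73 ± 0.52 (unadjusted p = 0.195), so no difference between genotypes in the response was shown.

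Transcripts of several cell types differed between the same groups as Igf1. The summed level of 12 macrophage markers, all with counts in every library except 1 marker at 0 in irradiated wild-type replicate 2, was 2433 and 2513 CPM in irradiated mutants, 834 and 1303 CPM in irradiated wild type, 1097 and 954 CPM in unirradiated mutants, and 971 and 909 CPM in unirradiated wild type. Set against that sum, Igf1 came to 7.48% to 11.4% in the irradiated libraries and 2.92% to 3.55% in the unirradiated ones without overlap. Against the fibroblast and reticular stroma sum given below, the ranges overlapped, at 8.6% to 29.5% irradiated and 5.01% to 9.99% unirradiated. Against the mesothelium sum they also overlapped, at 109% to 299.7% irradiated and 49.95% to 222% unirradiated. Against the endothelium and mural sums, irradiated libraries lay above unirradiated ones without overlap. Fewer cells of a type and less RNA per cell cannot be told apart in bulk tissue. The sum of 10 hepatocyte markers was 496 and 65.8 CPM in irradiated mutants and 93.5 and 98.4 CPM in irradiated wild type, and under 1 CPM in each unirradiated library, where 6 to 8 of the markers, Alb among them, were at 0. The sum of 9 granulocyte markers was 184 and 163 CPM in irradiated mutants, 177 and 78.8 CPM in irradiated wild type, 5072 and 9875 CPM in unirradiated mutants, and 1491 and 1283 CPM in unirradiated wild type, with 1 marker at 0 in each irradiated wild-type library. The B cell sum was 72.1 and 941 CPM in irradiated mutants, 575 and 1187 CPM in irradiated wild type, 1800.3 and 1859 CPM in unirradiated mutants, and 2796 and 3699 CPM in unirradiated wild type, so both sums were lower in irradiated libraries than in unirradiated ones without overlap. The erythroid sum was 127736 and 11404 CPM in irradiated mutants, 51341 and 63523 CPM in irradiated wild type, 16719 and 17410 CPM in unirradiated mutants, and 22272 and 39043 CPM in unirradiated wild type. Transcripts of the liver-made binding protein Igfbp1 were at 0 and 3 counts in irradiated mutants, 4 and 1 counts in irradiated wild type, 0 and 0 counts in unirradiated mutants, and 0 and 1 counts in unirradiated wild type. The part of these cell types in the Igf1 result was not tested.

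Igf2 (ENSMUSG00000048583.16; chromosome 7, start 142650766, end 142666816, - strand) is an imprinted ligand made mostly by fetal tissues. It was at 3.38 and 22.2 CPM in irradiated mutants, 8.46 and 17.6 CPM in irradiated wild type, 4.53 and 5.95 CPM in unirradiated mutants, and 7.42 and 4.74 CPM in unirradiated wild type. The irradiated mutant libraries lay on both sides of the unirradiated mutants, while both irradiated wild-type libraries lay above both unirradiated wild-type ones. Neither irradiation effect passed (1.30 ± 0.78 in mutants, adjusted p = 0.356; 1.09 ± 0.78 in wild type, adjusted p = 0.471). The mutant value came to -0.78 without irradiated mutant replicate 2. In the annotation, 62.8% of the exon bases of Igf2 also belong to Gm49394, a gene on the same strand that was not analysed here, and the sources used here do not say to which gene reads from shared bases went, which leaves the level of Igf2 uncertain to that extent. H19, the imprinted noncoding neighbour of Igf2, had 1 to 11 counts per library.

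Igf1r (ENSMUSG00000005533.10; chromosome 7, start 67952827, end 68233668, + strand), the receptor tyrosine kinase through which both ligands act, varied least. It was at 24.1 and 36.0 CPM in irradiated mutants, 25.5 and 34.4 CPM in irradiated wild type, 26.1 and 29.2 CPM in unirradiated mutants, and 18.4 and 15.5 CPM in unirradiated wild type. The unirradiated wild-type libraries were the lowest pair, and the other groups overlapped one another. The irradiation effect was 0.12 ± 0.31 in mutants (95% interval -0.60 to 0.85, adjusted p = 0.834) and 0.82 ± 0.32 in wild type (0.09 to 1.55, adjusted p = 0.256). The effects differed by -0.69 ± 0.44 (unadjusted p = 0.156), which does not show a difference.

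Per kilobase of merged exons, the scale on which genes can be compared, the binding proteins outweighed the ligands in each group. Igfbp7 had the highest level in each of the 4 groups: 312 CPM per kb on average in irradiated mutants, 204 in irradiated wild type, 173 in unirradiated mutants and 204 in unirradiated wild type. Igfbp4 and Igfbp3 came next, with 83.8 and 68.8 CPM per kb in irradiated mutants, 64.4 and 61.9 in irradiated wild type, 28.0 and 19.6 in unirradiated mutants, and 36.0 and 36.9 in unirradiated wild type; their libraries overlapped in each group except unirradiated mutants. Igfbp6 and Igfbp5 followed with overlapping libraries throughout. Igf1 stood below them at 20.3 CPM per kb in irradiated mutants, 11.5 in irradiated wild type, 3.37 in unirradiated mutants and 3.18 in unirradiated wild type, overlapping Igfbp5 except in unirradiated wild type. Its libraries lay apart from those of the next lower gene in each group by a ratio of means of 7.66, 5.08, 2.05 and 2.67 in that order of groups. Igf2, Igf1r and Igfbp2 were at the bottom at 0.67 to 2.65 CPM per kb, in an order that changed between groups.

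The summed level of the 6 binding proteins was 326 and 741 CPM per kb in irradiated mutants, 228 and 530 in irradiated wild type, 248 and 212 in unirradiated mutants, and 262 and 338 in unirradiated wild type. The irradiated mutants lay above the unirradiated mutants on this sum, while the wild-type groups overlapped. Igfbp7 and Igfbp4 together made up 67.4% to 88.2% of it in every library. The ratio of Igf1 to this sum, both per kb, was 0.0563 and 0.0300 in irradiated mutants, 0.0355 and 0.0283 in irradiated wild type, 0.0159 and 0.0132 in unirradiated mutants, and 0.0120 and 0.00948 in unirradiated wild type. Each irradiated library had more Igf1 per binding protein transcript than each unirradiated library.

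**Figure D2:**
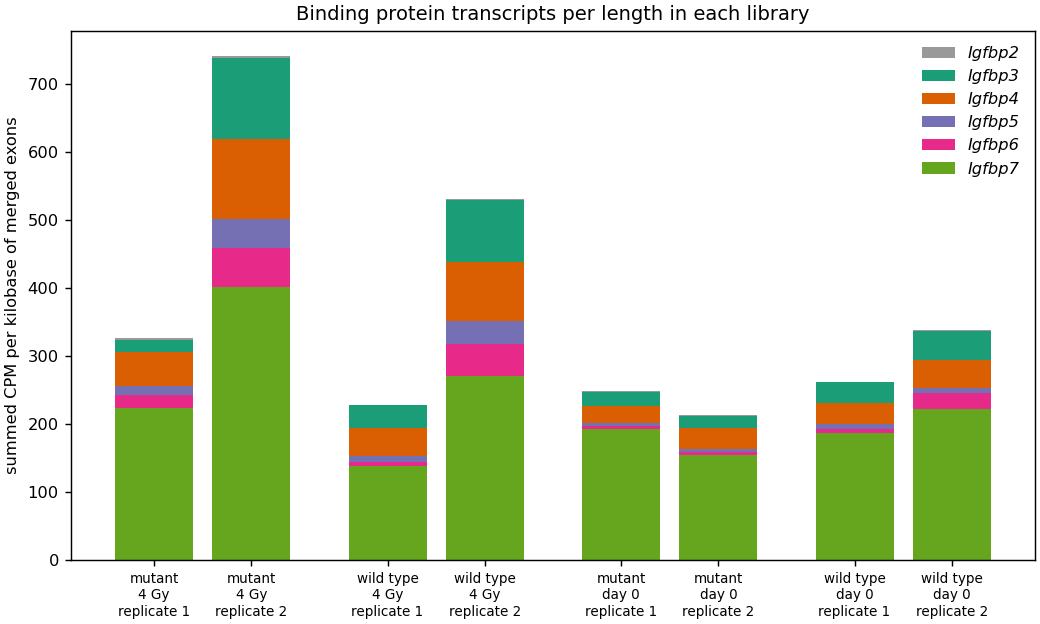
Levels of the 6 binding protein transcripts, stacked, in CPM per kilobase of merged exons, in each of the 8 libraries. Igfbp7 is the largest block in every bar, and replicate 2 stands above replicate 1 in both irradiated groups, at 741 against 326 in mutants and 530 against 228 in wild type.

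Across the comparison of irradiated with unirradiated mutants, the log2 fold changes of the 9 members had a median of 1.81, beside 0.15 for all genes tested, and all 9 were above 0. The groups did not overlap for 6 of 9 members, each higher after irradiation, where 26.9% of all genes were higher without overlap. Before adjustment, 5 of 9 members had p under 0.05, against 22.1% of all genes. In wild type the members' median was 0.84, beside 0.09 for all genes; 8 of 9 were above 0, 5 of 9 were higher without overlap (29.7% of all genes) and 2 of 9 had an unadjusted p under 0.05 (17.3%). DESeq2 called 4 of 9 upward in mutants (Igf1, Igfbp4, Igfbp5 and Igfbp6), with 6.3% of all genes, and 1 in wild type (Igf1), with 2.61%. Without irradiated mutant replicate 1, edgeR called 5 of 9 upward in mutants (Igf1, Igf2, Igfbp3, Igfbp4 and Igfbp5), with 4.82% of all genes. Without irradiated mutant replicate 1 or 2 it called Igf1 in wild type (adjusted p = 0.0103 and 0.0102), where 6.29% and 6.98% of all genes were called upward. Without irradiated mutant replicate 2, the mutant effects of Igf2, Igf1r and Igfbp3 turned to -0.78, -0.34 and -0.28. The comparisons of the 2 genotypes use separate libraries but share 1 estimate of the spread.

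**Figure D3:**
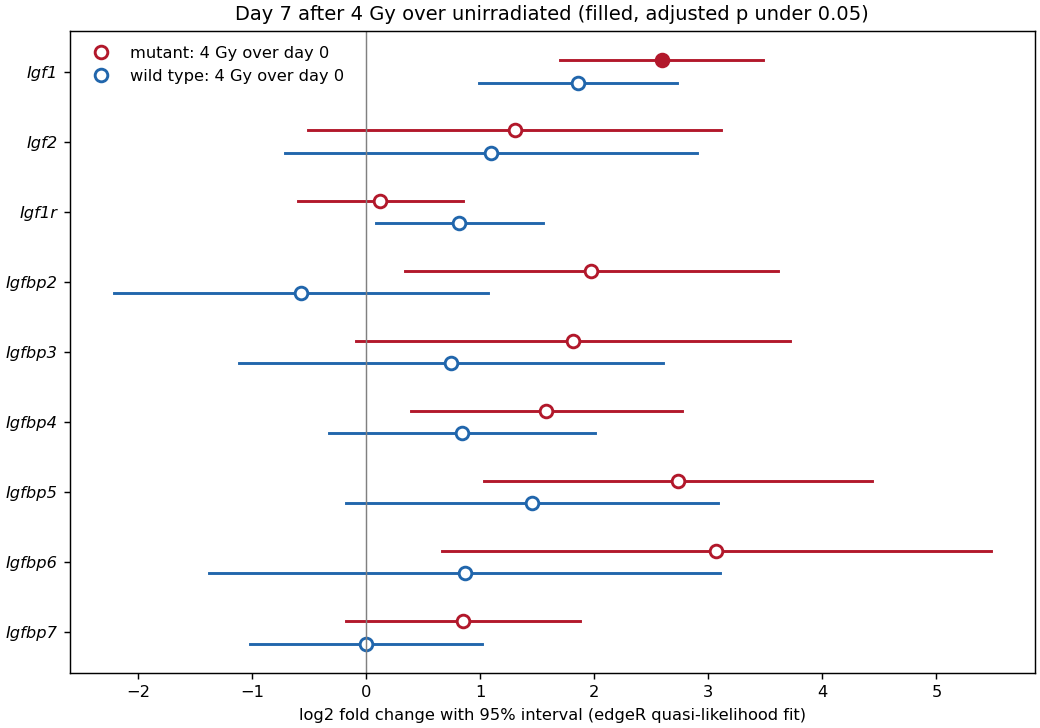
Log2 fold change of irradiated over unirradiated spleens for each member, in mutants (red) and wild type (blue); circles are estimates, bars 95% intervals, and a filled circle marks an adjusted p under 0.05. Only Igf1 in mutants is filled, at 2.59; Igfbp2 is the member whose estimates lie on opposite sides of 0, at 1.98 in mutants and -0.57 in wild type.

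Igfbp5 (ENSMUSG00000026185.8; chromosome 1, start 72857932, end 72874884, - strand) is a binding protein that attaches to extracellular matrix. It was at 76.9 and 256 CPM in irradiated mutants, 52.5 and 203 CPM in irradiated wild type, 22.4 and 27.7 CPM in unirradiated mutants, and 43.9 and 49.3 CPM in unirradiated wild type. In both genotypes the irradiated libraries lay above the unirradiated ones, and in both irradiated groups replicate 2 was over 3 times replicate 1 (3.33 in mutants, 3.87 in wild type). The irradiation effect was 2.73 ± 0.74 in mutants (95% interval 1.03 to 4.44, adjusted p = 0.114) and 1.46 ± 0.70 in wild type (-0.17 to 3.09, adjusted p = 0.325). It passed in mutants without irradiated mutant replicate 1 (adjusted p = 0.0139).

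Igfbp4 (ENSMUSG00000017493.12; chromosome 11, start 99041244, end 99054392, + strand), which mainly inhibits ligand action until it is cleaved by pappalysin, was at 223 and 517 CPM in irradiated mutants, 182 and 387 CPM in irradiated wild type, 115 and 133 CPM in unirradiated mutants, and 141 and 177 CPM in unirradiated wild type. Irradiated libraries were again above unirradiated ones in both genotypes, in wild type by a narrow margin (182 against 177 CPM). The irradiation effect was 1.58 ± 0.51 in mutants (adjusted p = 0.146) and 0.84 ± 0.50 in wild type (adjusted p = 0.404).

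Stromal transcripts moved with both genes. The sum of 12 markers of fibroblasts and reticular cells, each with at least 3 counts in every library, was 616 and 2559 CPM in irradiated mutants, 501 and 1179 CPM in irradiated wild type, 389.5 and 447 CPM in unirradiated mutants, and 474 and 634 CPM in unirradiated wild type. Igfbp4 spanned 4.51-fold over the 8 libraries and 1.80-fold once set against this sum, at 20.2% to 36.4% of it. Igfbp5 spanned 11.4-fold, and was 9.99% to 17.2% of the stromal sum in irradiated libraries against 5.74% to 9.26% in unirradiated ones, without overlap. Against the sum of the mesothelium markers described with Igfbp6 below, Igfbp4 spanned 2.52-fold and Igfbp5 2.53-fold, at 77.5% to 196% of it. The part of stromal and mesothelial transcripts in the results for these genes was not tested.

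Igfbp6 (ENSMUSG00000023046.6; chromosome 15, start 102144362, end 102149511, + strand), which prefers Igf2 over Igf1 as its ligand, had the widest range, 13.5-fold over the 8 libraries. It was at 21.0 and 64.7 CPM in irradiated mutants, 6.75 and 52.3 CPM in irradiated wild type, 4.79 and 5.44 CPM in unirradiated mutants, and 6.59 and 26.0 CPM in unirradiated wild type. The mutant groups lay apart and the wild-type groups overlapped, with replicate 2 well above replicate 1 in both wild-type groups. Its irradiation effect was 3.07 ± 1.04 in mutants (adjusted p = 0.157) and 0.86 ± 0.97 in wild type (adjusted p = 0.645). The sum of 7 markers of the mesothelium, the cell layer that covers the spleen, was 82.6 and 190.4 CPM in irradiated mutants, 26.7 and 136 CPM in irradiated wild type, 17.5 and 22.7 CPM in unirradiated mutants, and 26.3 and 63.6 CPM in unirradiated wild type. Against this sum Igfbp6 was at 23.9% to 40.8% in the 8 libraries, a range of 1.71-fold. The irradiated and unirradiated libraries overlapped in that ratio. It was the narrowest such range of Igfbp6 over the marker lists used, and against the stromal sum above the range was 3.65-fold. The part of mesothelial transcripts in the Igfbp6 result was not tested.

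**Figure D4:**
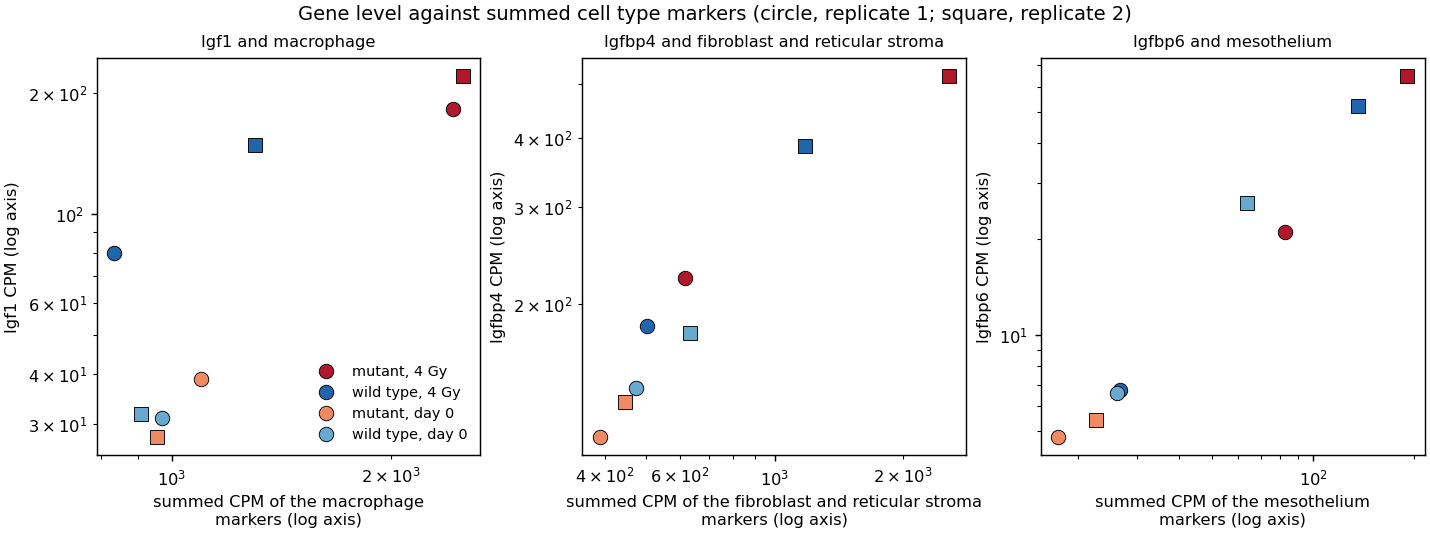
Level of Igf1, Igfbp4 and Igfbp6 (vertical, CPM) against the summed level of the macrophage, the fibroblast and reticular stroma, and the mesothelium markers (horizontal, CPM) in the 8 libraries; all axes are logarithmic, circles are replicate 1 and squares replicate 2. Igfbp6 lies along a line with the mesothelium sum in all libraries. Each irradiated library has more Igf1 than each unirradiated one. The macrophage sums of irradiated mutants (2433 and 2513 CPM) lie above those of all unirradiated libraries (at most 1097 CPM). Those of irradiated wild type are 834 and 1303 CPM.

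Igfbp3 (ENSMUSG00000020427.11; chromosome 11, start 7206086, end 7213923, - strand), the main carrier of the ligands in plasma, was at 56.3 and 375 CPM in irradiated mutants, 103 and 285 CPM in irradiated wild type, 64.2 and 58.8 CPM in unirradiated mutants, and 94.8 and 137 CPM in unirradiated wild type. Irradiated mutant replicate 1 was the lowest of all 8 libraries and replicate 2 the highest, a 6.65-fold gap. The irradiation effect was 1.81 ± 0.82 in mutants (adjusted p = 0.245) and 0.75 ± 0.80 in wild type (adjusted p = 0.630), and no direction can be read from either. Mural and smooth muscle markers (6 genes) had the same low and high libraries within the irradiated groups, with sums of 109.5 and 250.4 CPM in irradiated mutants and 127 and 241 CPM in irradiated wild type. At day 0 the sums were 81.2 and 94.1 CPM in mutants and 142 and 157 CPM in wild type, so that unirradiated mutants were lower in both. Replicate 2 was also above replicate 1 in both irradiated groups for the fibroblast, mesothelium, endothelium, macrophage, adipocyte, B cell and T cell sums. Igfbp3 spanned 2.91-fold over the 8 libraries once set against the mural sum and 2.64-fold against the fibroblast and reticular stroma sum. The part of any of these markers in the Igfbp3 values was not tested.

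Igfbp7 (ENSMUSG00000036256.13; chromosome 5, start 77349240, end 77408041, - strand), a relative with low affinity for the ligands that is abundant in endothelium and matrix, was at 269.7 and 484 CPM in irradiated mutants, 167 and 326 CPM in irradiated wild type, 233 and 185 CPM in unirradiated mutants, and 225 and 268 CPM in unirradiated wild type. Both irradiated mutant libraries were above both unirradiated mutant ones, and the wild-type groups overlapped. The effect was 0.85 ± 0.44 in mutants (adjusted p = 0.295) and 0.00 ± 0.44 in wild type (95% interval -1.02 to 1.02, adjusted p = 0.998). Polr2b, on the opposite strand, shares 7.03% of the exon bases of Igfbp7, and reads there could belong to either gene because the strand setting of the counting is not given. The 10 endothelial markers summed to 453 and 528 CPM in irradiated mutants, 365 and 634 CPM in irradiated wild type, 387 and 410 CPM in unirradiated mutants, and 459 and 490 CPM in unirradiated wild type.

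Igfbp2 (ENSMUSG00000039323.18; chromosome 1, start 72824503, end 72852474, + strand), the neighbour of Igfbp5 on chromosome 1 and a plasma binding protein, had the lowest CPM of the members. It was at 5.25 and 4.53 CPM in irradiated mutants (45 and 82 counts), 0.810 and 2.12 CPM in irradiated wild type (9 and 24 counts), 1.26 and 1.21 CPM in unirradiated mutants (29 and 26 counts), and 1.05 and 3.35 CPM in unirradiated wild type (24 and 53 counts). The irradiated mutant libraries were the highest pair, and the other groups overlapped. Irradiation gave 1.98 ± 0.71 in mutants (adjusted p = 0.170) and -0.57 ± 0.71 in wild type (adjusted p = 0.678). Of the members, Igfbp2 had the lowest p for a difference between these effects, 2.55 ± 0.996 with an unadjusted p = 0.0342, but it did not pass over all genes (adjusted p = 1). No member passed this interaction test, nor did any of the 17327 genes (0%; 1.6% at an unadjusted p under 0.05). For the members the interaction was above 0 in 8 of 9, with a median of 0.85 beside 0.05 for all genes, and DESeq2 and limma-voom also called 0 members (0.0231% and 0% of all genes).

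In irradiated spleens, mutants had higher levels than wild type without overlap for 2 of 9 members, where 10.4% of all genes were higher without overlap. These were Igfbp2 (1.73 ± 0.71, unadjusted p = 0.0421) and Igf1 (0.82 ± 0.37, unadjusted p = 0.0569); both had adjusted p = 1. The remaining members had log2 fold changes of -0.01 (Igf2), 0.01 (Igf1r), 0.15 (Igfbp3), 0.38 (Igfbp4 and Igfbp5), 0.54 (Igfbp6) and 0.61 (Igfbp7), each with overlapping groups. Their intervals were wide: that of Igfbp5 ran from -1.22 to 1.98 and that of Igfbp6 from -1.68 to 2.76. Of all 17327 genes 0 passed (0%; 4.02% at an unadjusted p under 0.05), and neither DESeq2 (0.477% of all genes) nor limma-voom (0%) called a member. Without irradiated mutant replicate 2, the values of Igf1r, Igfbp3, Igfbp4, Igfbp5 and Igfbp6 were below 0, with Igfbp3 at -1.84 and Igf2 at -2.00.

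In unirradiated spleens, 4 of 9 members were lower in mutants than in wild type without overlap, against 25% of all genes, and each was a binding protein: Igfbp3 (-0.91 ± 0.80), Igfbp4 (-0.36 ± 0.50), Igfbp5 (-0.90 ± 0.70) and Igfbp6 (-1.66 ± 0.996). Igf1r was higher in mutants without overlap (0.70 ± 0.31, unadjusted p = 0.0561), as were 20.8% of all genes. Igf1 was at near equal levels (0.09 ± 0.36, 95% interval -0.76 to 0.93). The members' median was -0.36, beside -0.02 for all genes. Before adjustment, 0 of 9 members and 2.24% of all genes had p under 0.05, and no gene passed after it (0%). DESeq2 and limma-voom called 0 members (0.354% and 2.28% of all genes). In a fit of only the unirradiated groups, Igfbp5 (adjusted p = 0.0240) and Igfbp3 (adjusted p = 0.0321) passed, both lower in mutants, as were 0.546% of all genes. Replicates in these groups were close for most genes, but the wild-type ones differed 3.18-fold in Igfbp2 and 3.94-fold in Igfbp6. The stromal and mesothelial sums given above were also lower in unirradiated mutants than in unirradiated wild type without overlap, and their part in these values was not tested.

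**Figure D5:**
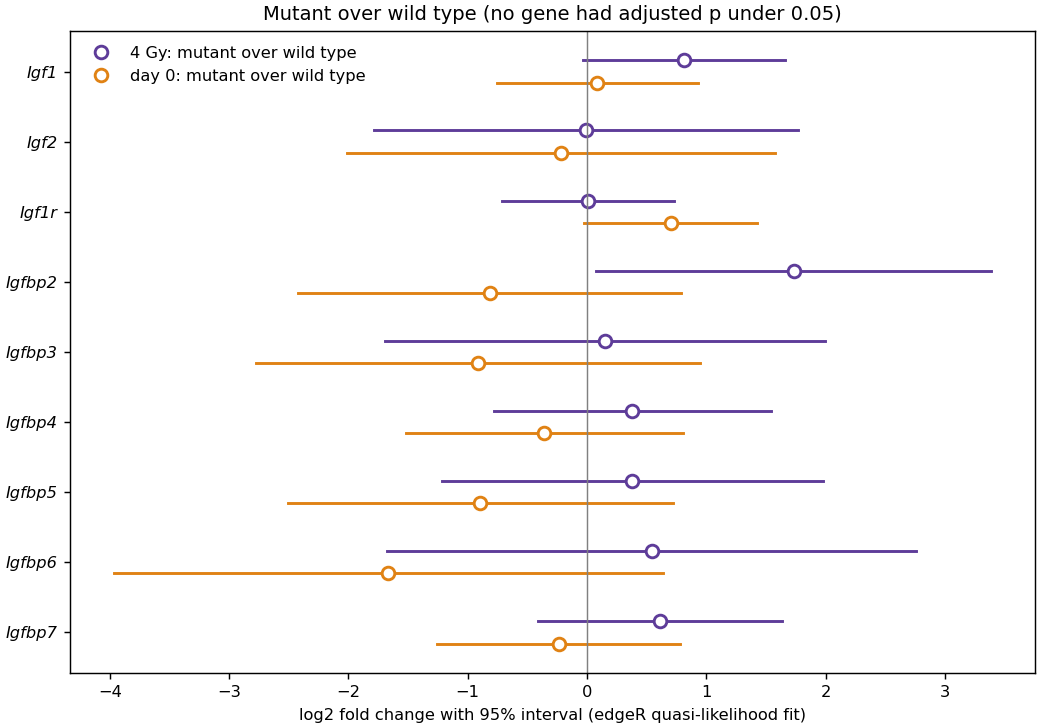
Log2 fold change of mutant over wild type for each member, in irradiated spleens (purple) and unirradiated spleens (orange); circles are estimates and bars 95% intervals. No member passed at an adjusted p of 0.05; the binding proteins Igfbp3 to Igfbp7 lie above 0 in irradiated and below 0 in unirradiated spleens, with intervals that cross 0.

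The rest of the pathway was read from a list of 48 ligands, receptors, carriers, adaptors and downstream genes, of which 40 were tested. None passed in any comparison in edgeR with all 8 libraries and the low-count filter. Without the filter, edgeR called 6 for irradiation in mutants, 3 for irradiation in wild type and 1 for genotype after irradiation. The shares of all genes called there were 7.27%, 5.35% and 0.569%. In a fit of only the wild-type groups it called 3 for irradiation, beside 6.96% of all genes. Before adjustment, p was under 0.05 for 14 of 40 for irradiation in mutants and 11 for irradiation in wild type, against 22.1% and 17.3% of all genes. It was under 0.05 for 1 for genotype after irradiation, 1 for genotype at day 0 and 0 for the interaction. The shares of all genes were 4.02%, 2.24% and 1.6%. In this order of comparisons DESeq2 called 9, 3, 0, 0 and 0 of the 40, and limma-voom 0, 3, 0, 0 and 0. Calls of pathway genes for irradiation, and for genotype after irradiation, also changed with the irradiated mutant library left out. Of all genes, DESeq2 called 11.3% for irradiation in mutants and 6.56% in wild type, and limma-voom called 0.693% and 3.45%. The list's median log2 fold change was 0.39 for irradiation in mutants and 0.22 in wild type, beside 0.15 and 0.09 for all genes. Among 7 adaptors, which couple the receptors to their kinases, 6 were above 0 in each genotype, with medians of 1.27 in mutants and 0.80 in wild type. The 16 genes of the PI3K, AKT and FOXO group had medians of 0.08 in mutants and 0.02 in wild type.

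Insr, the insulin receptor, was at 43.2 and 44.5 CPM in irradiated mutants, 31.4 and 35.8 CPM in irradiated wild type, 32.6 and 32.4 CPM in unirradiated mutants, and 30.3 and 30.4 CPM in unirradiated wild type. Igf2r, which clears Igf2 from the cell surface, was at 46.1 and 74.7 CPM in irradiated mutants, 39.8 and 51.5 CPM in irradiated wild type, 40.1 and 40.3 CPM in unirradiated mutants, and 37.5 and 33.4 CPM in unirradiated wild type. Within each genotype, both receptors were higher in both irradiated libraries than in both unirradiated ones, but their irradiation effects (0.43 ± 0.24 and 0.59 ± 0.31 in mutants, 0.15 ± 0.24 and 0.36 ± 0.31 in wild type) did not pass. Of the docking proteins for these receptors, Irs2 was at 21.2 to 66.4 CPM over the 8 libraries and Irs1 at 0.450 to 3.65 CPM. Igfals, which joins Igfbp3 and Igf1 in the long-lived plasma complex, had 0 to 41 counts per library, and Ins1 and Ins2, the insulin genes, had 0 counts in each library.

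The genes whose profiles were most like each member's were found by Pearson correlation of log2(CPM + 0.5) over the 8 libraries among 12639 named genes. The libraries fall into irradiated and unirradiated sets, which raises such values for any gene that differs between them, so they rank genes and test nothing. For Igf1 they were Celf3 (0.99), Nr2f2 (0.99) and Maf (0.99); Maf, a transcription factor of macrophages, was at 181 and 195 CPM in irradiated mutants, 89.1 and 120 CPM in irradiated wild type, 56.2 and 49.4 CPM in unirradiated mutants, and 48.3 and 49.4 CPM in unirradiated wild type. Igfbp4 and Igfbp5 had Zmynd15 and Syde1 in common among their nearest 3 genes (0.990 to 0.997), and their likeness to each other was 0.99. Igfbp6 was nearest to Efna1 (0.99), the mesothelium marker Upk3b (0.99) and Rspo1 (0.98), of which Upk3b is in the marker list used above. Igfbp3 was nearest to Grem1 (0.99), a secreted antagonist of bone morphogenetic proteins, Hoxb7 (0.98) and Fmod (0.98), a matrix proteoglycan. Igf2 was nearest to Sh3pxd2b (0.99), Igf1r to Nbea (0.95), Igfbp2 to Krt10 (0.97) and Igfbp7 to Serpinf1 (0.98). Within the family the lowest values were those of Igfbp2 with Igf2 (0.06) and with Igf1r (0.08).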

How the data were processed

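RNA sequencing of spleen was analysed in 8 libraries. Total RNA was taken up in Trizol and a kit for mRNA was used for the libraries, per the labels' protocols. The values are whole-number counts of reads per gene as deposited by the authors, not normalised. The authors' tools were Trim Galore, Subread and featureCounts, per the submitters' processing notes; their versions, the annotation and the strand setting were not given there. Of 52636 identifiers, 52489 were given a symbol from GENCODE M21 (GRCm38, the assembly called mm10 in the notes). There were 0 lines naming no gene and 0 columns of no sample.

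Groups came from the sample titles. Genes were kept by filterByExpr (minimum count 10, minimum total 15) and scaled by TMM. CPM use these scaled sizes; levels per kb divide them by merged exon length. The test was edgeR's quasi-likelihood test (edgeR 4.0.16, R 4.3.3) on all 8 libraries with a term per group and 4 residual degrees of freedom, in 5 contrasts, adjusted by Benjamini-Hochberg over 17327 genes at 0.05. An SE is the size of the log2 fold change over the root of F. Alternatives used DESeq2 1.42.0 and limma-voom (limma 3.58.1), other filters, scalings and sets of libraries, a replicate block and each library left out. The procedure was tested on simulated data. Floors of 3 counts cover counting error only. Counts of replicates differed by more than sampling noise (chi-square over its degrees of freedom 19.1 to 331), so each library counted as 1 sample. The members, the lists of pathway and marker genes and the tests were chosen with earlier results of these data known. Named were the 9 members, any called pathway gene, 8 pathway genes whatever their values (Insr, Igf2r, Irs1, Irs2, Igfbp1, Igfals, Ins2 and H19) and the 3 genes most like each member with a mean of at least 1 CPM, leaving out predicted genes, antigen receptor segments and genes on X or Y. Ins1, Xist and single markers were named after their values were seen. Promoter sequences are from RefSeq on GRCm38.p6.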

Additional observations from a re-analysis of the deposited data

How the results depend on the processing

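The call of Igf1 for irradiation in mutants held with RLE scaling (adjusted p = 0.0407), DESeq2 (1.80e-07), limma-voom with library weights (0.0373), the replicate block (0.0327) and without either irradiated mutant or irradiated wild-type library, and was lost when only the mutant groups were fitted (0.227) and without any 1 unirradiated library (0.124 to 0.453); the cause was not tested. Members called for irradiation in mutants numbered 1, with 5 without the low-count filter, 4 in DESeq2, 0 in a fit of only the mutant groups, and 0 to 5 with a library left out (5 without irradiated mutant replicate 1). For irradiation in wild type they numbered 0, with 2 without the filter, 1 in DESeq2, 1 in limma-voom, 1 in a fit of only the wild-type groups, and 0 to 1 with a library left out (1 without either irradiated mutant library). For genotype at day 0 they numbered 0, with 1 without the filter, beside 0.484% of all genes. In a fit of only the unirradiated groups they numbered 2, beside 2.81% of all genes. Without the filter, 7.27% of all genes were called for irradiation in mutants and 5.35% in wild type, and 6.96% in the wild-type groups alone. Without a library, pathway genes called numbered 0 to 14 for irradiation in mutants, 0 to 10 for irradiation in wild type and 0 to 3 for genotype after irradiation. No label pairs libraries with the same replicate number: their deviations correlated at 0.54 between the irradiated groups, 0.28 between the unirradiated groups and 0.04 to 0.25 between days. With the replicate block, the members called stayed at 1 for irradiation in mutants and 0 in the other comparisons, while genes called numbered 253 against 104 in mutants and 16 against 10 in wild type.

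Effects near 0 changed sign. For irradiation in wild type, Igfbp7 came to -0.094 without the filter, -0.056 with RLE, -0.056 in DESeq2, -0.073 in limma-voom, -0.048 in the wild-type groups alone and -0.050 with the replicate block; Igf1r in mutants came to -0.017 without the filter. For genotype after irradiation, Igf2 came to 0.0092 without the filter, 0.010 with RLE and 0.0032 in DESeq2, Igf1r to -0.0079 without the filter and -0.010 in the irradiated groups alone, and Igfbp3 to -0.27 in limma-voom and -0.032 with the replicate block. The cause was not tested. With a library left out, genotype after irradiation ran from -2.00 to 0.81 for Igf2, -0.37 to 0.31 for Igf1r, -1.84 to 1.06 for Igfbp3, -0.41 to 1.02 for Igfbp4, -0.79 to 1.66 for Igfbp5 and -0.55 to 2.67 for Igfbp6. Genotype at day 0 ran from -0.18 to 0.31 for Igf1, -0.50 to 0.14 for Igf2 and -1.43 to 0.23 for Igfbp2. Irradiation in mutants ran from -0.78 to 2.03 for Igf2, -0.34 to 0.33 for Igf1r and -0.28 to 2.55 for Igfbp3. Irradiation in wild type ran from -1.44 to 0.45 for Igfbp2, -0.18 to 1.28 for Igfbp3, -1.28 to 2.14 for Igfbp6 and -0.57 to 0.39 for Igfbp7. The interaction ran from -1.80 to 1.01 for Igf2, -0.96 to 1.98 for Igfbp3 and -0.073 to 1.38 for Igfbp4. A left-out library leaves 1 sample in its group, which is then assumed to vary like the others.

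With 2 libraries a group, fitted differences of 2.99-fold to 8.39-fold in 5 binding proteins of irradiated mutants did not pass over all genes. The mutant groups overlapped for Igfbp3 among them. The lowest count of a member was 9, of Igfbp2 in irradiated wild-type replicate 1, where counting error limits its level.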
